A study of Mus musculus with 6 samples.

Results

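The genes described here lie in the last 19.7 Mb of mouse chromosome 8 (mm10), from the start of Dhx38 at chr8:109548011 to the last expressed gene, whose annotation ends at position 129282844. The start of this stretch was selected on the Ts1Cje to wild-type differences of these same libraries, so the shift between the genotypes is given throughout as a description of the members. Members were the rows of the count table that start in the stretch and reached 10 or more counts in at least 3 of the 6 libraries. Of 442 rows in the stretch, 196 met the count rule, and 6 of these (Rpl13, Foxf1, Foxc2, Cbfa2t3, Marveld3 and Cox4i1) were left out by name. The 190 members, of 55487 rows in the whole table, comprised 151 protein-coding genes and 39 others, among them 12 antisense transcripts, 7 processed pseudogenes and 5 lincRNAs.

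The libraries came from cells grown out of mouse embryonic stem cells and sampled on day 4 of induction with FGF2, BMP-4, activin A and VEGF, a treatment meant to yield primitive macrophage progenitors, which all 6 received. Poly(A) RNA was sequenced with a directional kit from 3 lots of cells established from Ts1Cje mice and 3 from wild-type mice. Ts1Cje is a Down syndrome model in which the distal end of chromosome 16 is present in an additional copy, joined to another chromosome, and it is also known to lack a few genes at the junction. No extra or missing copy of chromosome 8 is named in the labels. Samples carry lot numbers, with no word on whether a lot is its own culture, line or animal, so the p-values measure only the spread between these samples, and genotype and cell line cannot be told apart.

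The end of this chromosome is not a pathway. It holds unrelated housekeeping genes, among them genes for the splicing, replication, autophagy and mitochondrial import machinery, interspersed with regulators of blood and vessel development such as Irf8, Maf, Zfpm1, Nrp1 and Itgb1. Genes with a role in early macrophage formation therefore sit beside genes that nearly every cell uses. Gene copy number was not measured.

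Library totals ran from 16577065 to 19010856 counts. Expression is given as CPM, reads scaled to a common library size. Across genes, log2 CPM of wild-type libraries correlated at 0.980 to 0.989, those of Ts1Cje libraries at 0.986 to 0.987, and libraries of different genotype at 0.912 to 0.943. The cell-type markers moved with genotype as well. Summed pluripotency and epiblast markers were at 285 to 494 CPM in wild-type and 1590 to 2210 in Ts1Cje, and 8 of 8 rose. Mesoderm markers were at 1580 to 1740 against 357 to 571 CPM, with 6 of 8 lower, and hemogenic endothelium markers at 536 to 640 against 68.3 to 145, with 7 of 8 lower. Blood progenitor markers were at 155 to 196 against 35.1 to 57.6 CPM, with 5 of 7 lower and 1 higher, and endoderm markers at 113 to 122 against 515 to 693, with 7 of 7 higher. Of 13 macrophage and myeloid markers only 4 met the count rule, at a summed 60.2 to 94.7 against 178 to 215 CPM. Of these, 2 were higher. Csf1r did not pass in edgeR's quasi-likelihood test (0.338, adjusted p = 0.0703). It had 296, 250 and 245 counts in wild-type and 331, 268 and 385 in Ts1Cje. The defining genes Ptprc, Cx3cr1 and Fcgr1 had 0 counts in every library, and Spi1 and Adgre1 had 0 to 6. The list also held Kit, so it is not of macrophage genes alone. Primitive erythroid markers summed to 4.88 to 6.82 against 5.86 to 9.47 CPM (1 of 3 tested higher, with Hbb-y and Hba-x at 0), and fibroblast and feeder markers to 225 to 305 against 238 to 270 (2 of 4 tested lower). The part of these differences in cell state in the values of single members was not tested, and in bulk RNA fewer cells of a type and less RNA per cell cannot be told apart.

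The members as a group stood above the wild-type level by about the same amount in each Ts1Cje library. For each gene and library, the log2 CPM was set against the mean of the wild-type libraries. The median of this difference over 188 members was 0.47, 0.54 and 0.49 in Ts1Cje replicates 1, 2 and 3, and −0.01, −0.02 and 0.02 in the wild-type libraries. The Ts1Cje mean was 0.497 ± 0.035 and the wild-type mean −0.003 ± 0.021 (SD, n = 3). Wild-type values lie near 0 by construction, since each wild-type library is part of the mean subtracted from it. Against the mean of the other wild-type libraries, the medians of wild-type replicates 1, 2 and 3 were −0.014, −0.029 and 0.032. Members above the wild-type mean numbered 162, 166 and 165 of 188 in the Ts1Cje libraries, against 90, 83 and 104 in wild-type. No Ts1Cje library carried the shift alone. The lowest of them lay above the highest wild-type library, on the same contrast that chose the stretch.

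**Figure D1:**
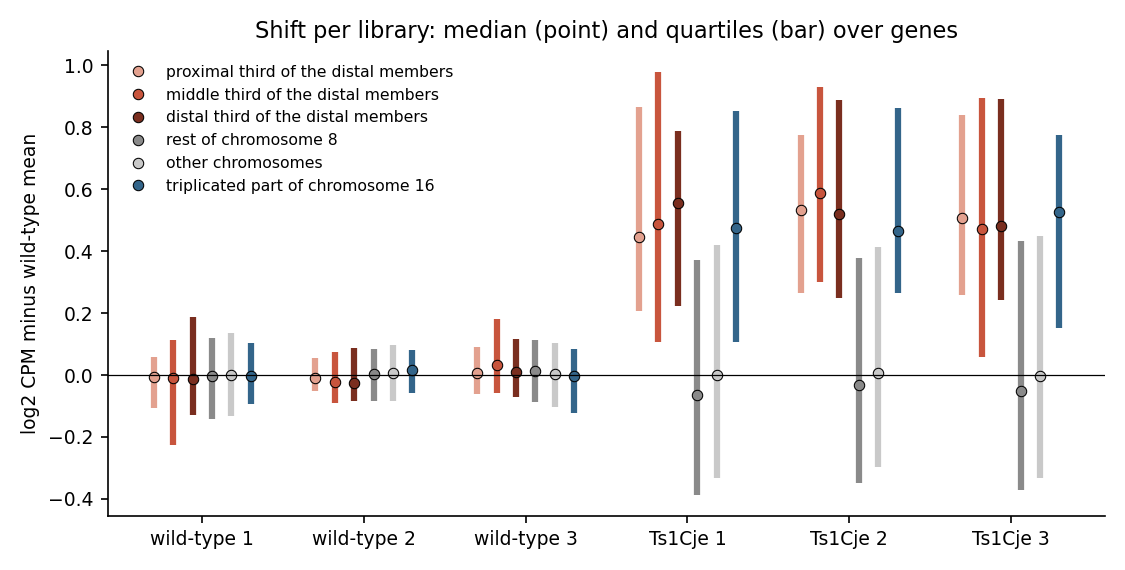
Median (points) and quartiles (bars) over genes of log2 CPM minus the wild-type mean, for each library on the x axis, with the distal members divided by gene order. In each Ts1Cje library each division of the distal members lie between 0.446 and 0.587, near the triplicated part of chromosome 16, while the rest of chromosome 8 and the other chromosomes lie near 0.

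Members were divided by gene order into 3 sets. The proximal set (63 genes) stood at 0.446, 0.534 and 0.507 in Ts1Cje replicates 1, 2 and 3. The middle set (63 genes) stood at 0.489, 0.587 and 0.473, and the distal set (62 genes) at 0.554, 0.520 and 0.482. The order of the sets differed between libraries. Their mean medians of 0.496 ± 0.045, 0.517 ± 0.062 and 0.519 ± 0.036 (SD, n = 3) differed by less than the spread between libraries. Bins of 5 Mb, given further on, were less even, and so was the share of genes above 0. In Ts1Cje replicates 1, 2 and 3 that share was 77.8%, 81.0% and 79.4% in the middle set. It was 88.9%, 95.2% and 90.5% in the proximal set and 91.9%, 88.7% and 93.5% in the distal set. In medians per library, the 731 tested genes of the rest of chromosome 8 were at −0.05 ± 0.02. The 16313 genes of other chromosomes were at 0.001 ± 0.006, and 76 genes of the triplicated part of chromosome 16 at 0.49 ± 0.03. The members' share of all counts was 1.076%, 1.068% and 1.081% in wild-type and 1.521%, 1.535% and 1.484% in Ts1Cje.

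Single members were far less even than their median. Of 188 members, 151 lay above the wild-type mean in all 3 Ts1Cje libraries, 13 in none and 24 in some. The SD between members of the mean shift was 0.85 on the log2 scale, a value that extreme members raise. The median over members of the SD within Ts1Cje was 0.15 and within wild-type 0.14. In the fitted log2 fold changes, the SD was 0.949 over members and 1.078 over tested genes of other chromosomes. Members thus differed from each other by more than libraries of one genotype did. In the fit over all 17315 tested genes, the members' median log2 fold change was 0.50 (1.42-fold) with quartiles at 0.21 and 0.89, and the median SE of a single member was 0.13. The median over all tested genes was −0.01, with an interquartile range of 0.73 beside 0.68 for the members.

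All calls below come from edgeR's quasi-likelihood test with Benjamini-Hochberg adjustment over those 17315 genes, at an adjusted p under 0.05, and errors of log2 fold changes are SE. Of the members, 120 rose and 8 fell, and 60 did not pass. Over all tested genes 43.8% passed, 23.3% higher and 20.5% lower; since this contrast chose the members, nothing is read from these shares. Of those that passed, 5 that rose and 1 that fell were members only through the libraries of the genotype where they are high. The number that fell was 5 without Ts1Cje replicate 3 and also 5 without wild-type replicate 2. The groups did not overlap for 134 members that were higher in Ts1Cje and 8 that were lower, where 28.8% and 26.4% of all tested genes had such groups. The log2 fold change was above 1 for 37 members and below −1 for 6, beside 2050 and 1182 of 16313 tested genes on other chromosomes. Of 151 protein-coding members 105 rose and 6 fell around a median of 0.55. Of 37 tested members of other kinds 15 rose and 2 fell around a median of 0.30. On other chromosomes 25.6% of protein-coding genes rose and 22.9% fell, beside 11.6% and 11.5% of genes of other kinds. The median SE there was 0.126 for protein-coding genes and 0.308 for the others. Members with a mean of 1000 or more counts had a median of 0.42 (67 genes), those with 100 to 1000 counts 0.56 (82 genes) and those under 100 counts 0.30 (39 genes).

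The bins on either side of the start describe the choice of that start, since it was selected on these differences. In the 5 Mb before the first member, 85 tested genes had a median log2 fold change of −0.14 and 38.8% of them were above 0. In the first 5 Mb of the stretch, 47 genes had a median of 0.44 and 91.5% were above 0. The following bins of 5 Mb had medians of 0.90 (20 genes), 0.50 (94 genes) and 0.54 (34 genes), with 95%, 85.1% and 91.2% of genes above 0. Bins hold every tested gene, also the 6 left out by name and 1 short of the count rule. The longest unbroken run of members above 0 in gene order held 25, from Cmc2 to Usp10.

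**Figure D2:**
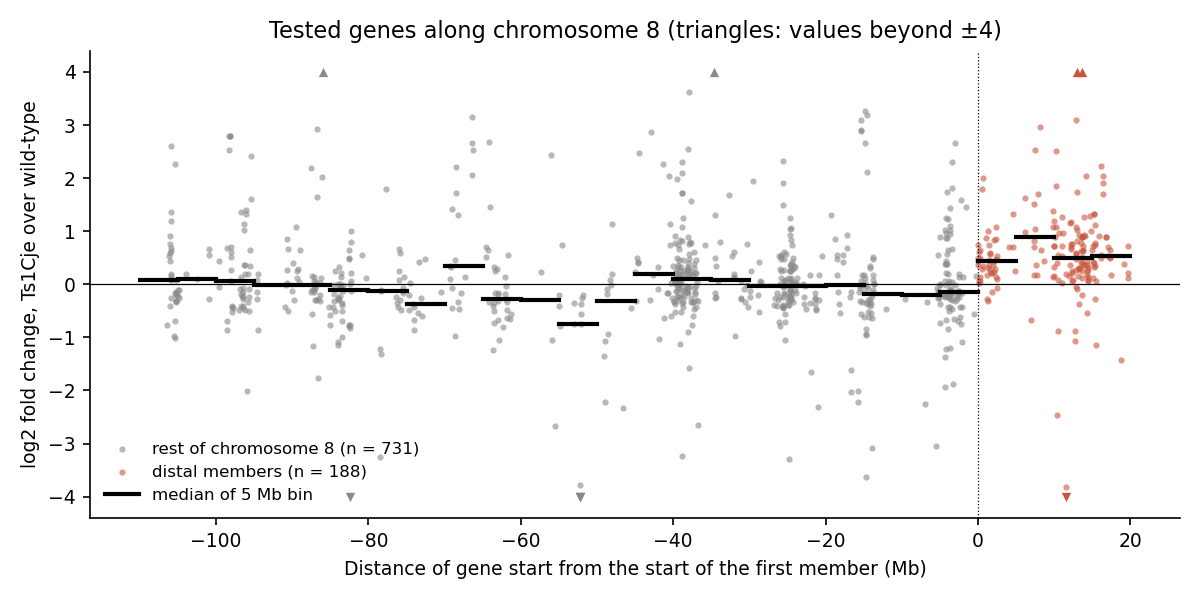
log2 fold change of the tested members and of the tested genes of the rest of chromosome 8 (y axis). The x axis is the distance of each gene's start from the start of the first member in Mb. Black lines are medians of 5 Mb bins over all tested genes. They include the 6 genes left out by name and 1 gene short of the count rule, which are not drawn as points. The bin medians lie at 0.44 or above to the right of the dotted line and at −0.14 or below in the 3 bins to its left.

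At the start itself, the values just inside and just outside were as follows. Dhx38, a splicing helicase and the first member, had 2781, 2649 and 2606 counts in wild-type and 3621, 3100 and 3342 in Ts1Cje, a log2 fold change of 0.36. Txnl4b, a small splicing factor next to it, had a log2 fold change of 0.50, the value nearest to the members' median. The last row outside that meets the count rule, the processed pseudogene Gm1943, had 35, 44 and 57 against 51, 57 and 39 counts (0.15), and the lincRNA D030068K23Rik before it was at −0.55. Zfhx3, the protein-coding gene before both, was at 1.46 and Psmd7 at 0.15 (both named after their values were seen), so the point of the change cannot be placed between these sparsely counted rows. At the count threshold, 10 members reached 10 counts in exactly 3 libraries, 5 of them in the Ts1Cje libraries only and 1 in the wild-type libraries only, and 8 rows of the stretch were 1 library short. A total of 173 members had 10 or more counts in all 6 libraries, and Gm22314 and Gm15775 were the 2 members with too few counts to be tested.

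Of 19 genes chosen as markers of cell state or growth, 16 were members, of which 9 rose, 2 fell and 5 did not pass. Over all tested members 63.8% rose and 4.26% fell, and over all tested genes 23.3% and 20.5%. The same shares stand beside the counts of each role list below. Il34, a ligand of the macrophage receptor Csf1r, had 11 counts over the 3 wild-type and 3 over the Ts1Cje libraries. Hp, the hemoglobin scavenger haptoglobin, had 3 against 15, and Agt, the angiotensin precursor, 0 against 8. These 3 fell short of the count rule and no fold is given.

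**Figure D3:**
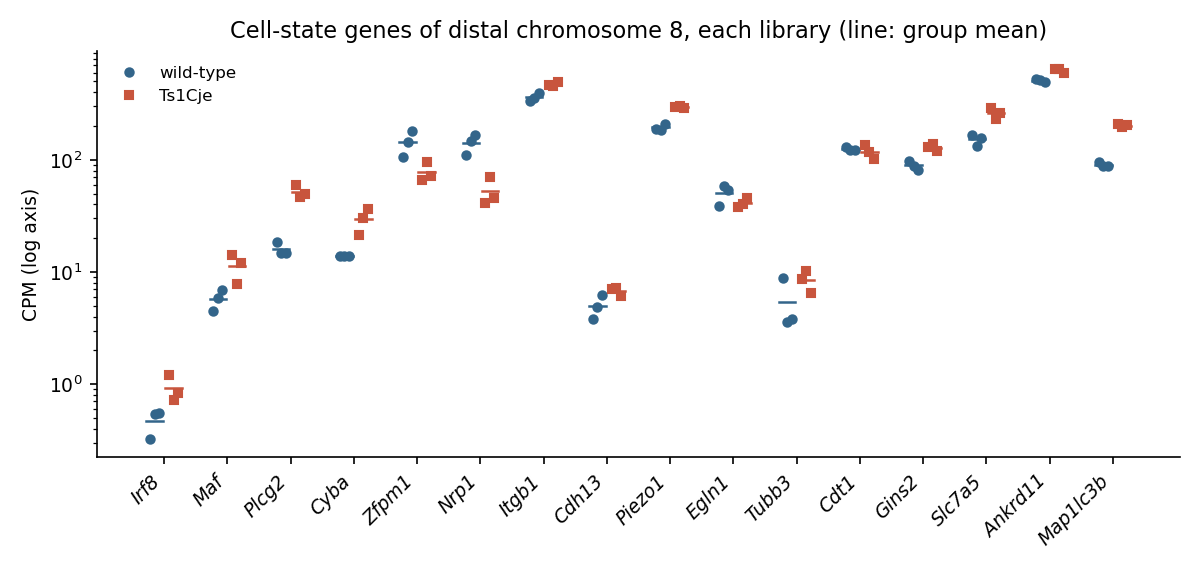
CPM (log axis) of the 16 cell-state members in each library, with circles for wild-type, squares for Ts1Cje and a line at each group's mean. The groups are apart and higher in Ts1Cje for genes such as Plcg2 and Map1lc3b, lower for Zfpm1 and Nrp1, and overlap for Cdh13, Egln1, Tubb3 and Cdt1.

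The list of blood, macrophage and innate immunity genes pointed both ways, around a median of 0.99. Of its 6 members, 4 rose (Maf, Plcg2, Cyba and the fucose salvage kinase Fcsk), Zfpm1 fell and Irf8 did not pass. Plcg2, a phospholipase that signals downstream of immune receptors and is expressed in microglia and other myeloid cells, was at 18.5, 14.7 and 14.6 CPM in wild-type and 59.2, 46.2 and 49.2 in Ts1Cje. Every Ts1Cje library exceeded every wild-type library, and the log2 fold change was 1.69 ± 0.13 (adjusted p = 9.89e-06). Cyba, a subunit of the phagocyte NADPH oxidase, was at 13.9 CPM in all 3 wild-type libraries and at 21.5, 30.2 and 36.7 in Ts1Cje (1.09 ± 0.18, adjusted p = 0.000908). Its spread lay almost wholly within Ts1Cje.

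Maf, a transcription factor that restrains self-renewal in mature macrophages, was at 4.44, 5.90 and 6.85 CPM in wild-type and 14.2, 7.87 and 11.9 in Ts1Cje. The groups did not overlap, though Ts1Cje replicate 2 came close to wild-type (0.98 ± 0.25, adjusted p = 0.00884). Fcsk, a kinase that salvages fucose for glycan synthesis, was at 31.9, 32.6 and 30.9 against 56.2, 69.8 and 65.6 CPM (1.01 ± 0.10, adjusted p = 3.28e-05). Irf8, the factor that directs progenitors to the monocyte and macrophage fate, was near the limit of detection at 0.325, 0.541 and 0.548 CPM in wild-type and 1.21, 0.715 and 0.840 in Ts1Cje. The groups did not overlap, but on 26 and 50 counts in all the difference of 0.96 ± 0.43 did not pass (adjusted p = 0.0987).

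Zfpm1 (Fog1), the cofactor through which GATA factors direct erythroid and megakaryocyte development, ran the other way. It was at 107, 144 and 180 CPM in wild-type and 65.9, 96.5 and 71.8 in Ts1Cje. All Ts1Cje libraries lay below the lowest wild-type library, by little in replicate 2, and the log2 fold change was −0.88 ± 0.23 (adjusted p = 0.0218). The call did not hold without Ts1Cje replicate 1 (adjusted p = 0.0819), without Ts1Cje replicate 3 (0.0807) or without wild-type replicate 2 (0.0551).

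Among adhesion, guidance, matrix and cytoskeleton genes, 7 of 15 members rose and 2 fell, around a median of 0.38. One of the falls is Crispld2, which met the count rule only through the wild-type libraries, where it is high. Nrp1 and Itgb1, both near the end of the chromosome, moved in opposite directions. Nrp1, a coreceptor for VEGF and semaphorins found on endothelium, was at 110, 148 and 167 CPM in wild-type and 41.4, 70.9 and 46.1 in Ts1Cje. No Ts1Cje library reached the wild-type range, and the log2 fold change was −1.42 ± 0.26 (adjusted p = 0.00601). Itgb1, the integrin beta chain shared by most receptors for matrix, was at 334, 354 and 396 CPM against 463, 455 and 490. Here every Ts1Cje library was the higher one, at 0.38 ± 0.07 (adjusted p = 0.00213). Their promoters are printed because both come from one end of the chromosome and from genes that moved apart, a choice made after their values were seen. They are from RefSeq on GRCm38.p6, run 5′ to 3′ on the plus strand from 250 bases before to 50 after the start, and cover chr8:128358823-128359122 for Nrp1 and chr8:128685404-128685703 for Itgb1, with the GC box GGGCGG in capitals.
Nrp1: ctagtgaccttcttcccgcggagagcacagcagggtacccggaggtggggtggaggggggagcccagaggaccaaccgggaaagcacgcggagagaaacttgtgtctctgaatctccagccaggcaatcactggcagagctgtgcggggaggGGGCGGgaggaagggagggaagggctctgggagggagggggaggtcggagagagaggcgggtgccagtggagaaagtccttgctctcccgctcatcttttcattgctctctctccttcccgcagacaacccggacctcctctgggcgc
Itgb1: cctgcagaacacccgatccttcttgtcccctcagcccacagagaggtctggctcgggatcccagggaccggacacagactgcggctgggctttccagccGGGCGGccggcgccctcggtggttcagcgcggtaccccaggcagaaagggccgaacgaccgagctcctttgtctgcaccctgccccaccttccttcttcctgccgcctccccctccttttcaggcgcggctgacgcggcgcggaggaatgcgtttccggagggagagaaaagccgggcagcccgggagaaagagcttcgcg
Each window held 1 GC box on the plus strand and none on the minus strand. The GC content was 64.0% for Nrp1 and 67.3% for Itgb1. The starts used are those of RefSeq. In the count table Nrp1 starts at 128358604, so its whole window lies inside the gene as annotated there.

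Cotl1, an actin-binding protein abundant in blood cells, is named here after its values were seen. It was at 52.7, 56.7 and 58.5 CPM in wild-type and 318, 294 and 345 in Ts1Cje, far apart (2.51 ± 0.08, adjusted p = 2.59e-07). Piezo1, a stretch-activated ion channel, was at 190, 186 and 210 against 296, 303 and 289 CPM (0.60 ± 0.06, adjusted p = 6.82e-05), with no overlap. Bcar1, an adaptor at focal adhesions also named after its values were seen, was at 85.4, 85.4 and 98.6 against 164, 147 and 168 CPM (0.83 ± 0.08). Cdh13, a cadherin held in the membrane by a lipid anchor, was at 3.84, 4.82 and 6.25 against 7.01, 7.21 and 6.09 CPM. Its groups overlapped, and 0.45 ± 0.22 did not pass (adjusted p = 0.123).

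**Figure D4:**
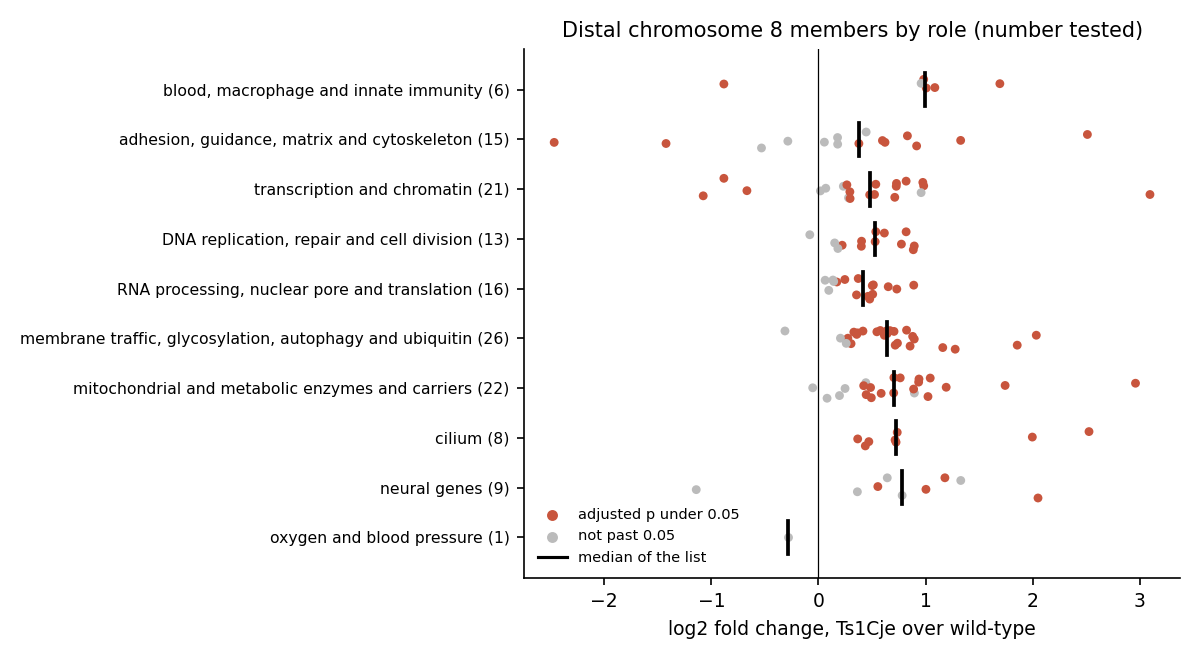
log2 fold change of the tested members of 10 role lists (x axis), with the number tested in brackets, colour for an adjusted p under 0.05 and a black line at each list's median. Medians of the lists with more than 1 member lie between 0.38 (adhesion) and 0.99 (blood and macrophage), and the 6 coloured points left of 0 belong to 5 genes, since Zfpm1 is in 2 lists.

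Of the 188 tested members 129 were in at least 1 role list, some in several, and 59 in none (29 higher, 3 lower, median 0.35). Members that met the count rule only through the Ts1Cje libraries are among those 29. Beside the counts of all lists stand 63.8% of all tested members higher and 4.26% lower, and 23.3% and 20.5% of all tested genes. No list is read as a result about its function. In membrane traffic, glycosylation, autophagy and ubiquitin, 23 of 26 members rose and none fell (median 0.64), while with the replicate block 24 rose and 1 fell. Map1lc3b, the LC3B protein that coats forming autophagosomes, was at 94.9, 88.5 and 88.4 CPM in wild-type and 207, 195 and 205 in Ts1Cje. Both groups were tight and far apart (1.16 ± 0.06, adjusted p = 1.45e-06). Gabarapl2, a relative of LC3B named after its values were seen, was at 23.9, 23.0 and 28.7 against 48.0, 41.9 and 46.7 CPM (0.86 ± 0.11). The members with the highest wild-type CPM, a value not scaled for length, had smaller changes. Mbtps1, the protease that activates sterol-regulated transcription factors, was at 294, 296 and 286 against 369, 375 and 358 CPM (0.33 ± 0.05, adjusted p = 0.000843). Glg1, a Golgi membrane glycoprotein, was at 290, 321 and 324 against 351, 377 and 403 CPM (0.27 ± 0.07, adjusted p = 0.0108), a call that did not hold without Ts1Cje replicate 3 (0.0513). Rab4a, a GTPase of endosome recycling named after its values were seen, stood out at 10.2, 11.3 and 11.0 against 44.8, 38.7 and 49.6 CPM (2.03 ± 0.12).

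In the list of mitochondrial and metabolic enzymes and carriers, 16 of 22 members rose and none fell (median 0.70). Those that rose include Sdr42e1, which met the count rule only through the Ts1Cje libraries, where it is high. Slc7a5, the large neutral amino acid transporter of growing cells, was at 168, 134 and 158 CPM in wild-type and 289, 232 and 259 in Ts1Cje, without overlap (0.76 ± 0.10, adjusted p = 0.000301). Tomm20, a receptor for protein import at the mitochondrial outer membrane, was at 245, 227 and 231 against 360, 316 and 315 CPM (0.49 ± 0.07, adjusted p = 0.000342). Gcsh, the lipoyl carrier protein of the glycine cleavage system, was at 91.4, 94.3 and 90.2 against 209, 166 and 194 CPM (1.04 ± 0.09) and is named after its values were seen. Slc7a5, Tomm20 and Gcsh all had Ts1Cje libraries above every wild-type library.

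Of 13 genes of DNA replication, repair and cell division, 10 rose and none fell (median 0.53), and both genes of replication licensing and firing that were followed differed in outcome. Gins2, a subunit of the replicative helicase complex, was at 98.3, 88.3 and 81.1 CPM in wild-type and 130, 137 and 119 in Ts1Cje (0.53 ± 0.09, adjusted p = 0.000783). Cdt1, which loads that helicase before S phase and is destroyed during it, was at 130, 122 and 123 against 136, 117 and 101 CPM. Its groups overlapped, at −0.08 ± 0.10 (adjusted p = 0.541), and the sign was positive without Ts1Cje replicate 3. Whether Gins2 and Cdt1 differ from each other was not tested. Usp10, a deubiquitinase, was at 181, 196 and 211 against 259, 259 and 257 CPM (0.40 ± 0.07, adjusted p = 0.000964). Rfwd3, a ubiquitin ligase of DNA repair, was at 214, 206 and 202 against 239, 251 and 235 CPM (0.22 ± 0.06, adjusted p = 0.0113); the call did not hold without wild-type replicate 2 (0.0534) or 3 (0.0506). Fanca, a core subunit of the Fanconi anemia complex named after its values were seen, was at 63.1, 53.7 and 49.8 against 113, 98.1 and 97.2 CPM (0.89 ± 0.10).

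Genes of RNA processing, the nuclear pore and translation had a median of 0.42 with an SD of 0.24 between members, and 12 of 16 rose, none fell and all 16 lay above 0. Sf3b3, a subunit of the splicing factor SF3B, was at 500, 493 and 525 CPM in wild-type and 585, 582 and 542 in Ts1Cje (0.17 ± 0.06, adjusted p = 0.0373). The call did not hold without Ts1Cje replicate 1 (0.0956) or 2 (0.102), nor without wild-type replicate 1 (0.0652) or 2 (0.151). Kars, the lysyl-tRNA synthetase, was at 305, 329 and 340 against 363, 340 and 339 CPM and overlapped (0.10 ± 0.06, adjusted p = 0.247). Aars, the alanyl-tRNA synthetase, was at 279, 204 and 221 against 422, 368 and 377 CPM, without overlap (0.73 ± 0.11) and is named after its values were seen. Txnl4b, at 8.22, 11.7 and 12 CPM in wild-type against 13.5, 14.8 and 16.9 CPM, had an adjusted p of 0.0388, which rose to 0.0774, 0.142, 0.0794 and 0.0584 without Ts1Cje replicates 2 and 3 and wild-type replicates 1 and 2.

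Of 21 genes of transcription and chromatin, 13 rose and 3 fell (median 0.48). Those that rose include Snai3, which met the count rule only through the Ts1Cje libraries, where it is high. Ankrd11, a large chromatin regulator, had the highest wild-type CPM of the list, at 523, 514 and 490 against 643, 641 and 589, without overlap (adjusted p = 0.00298). Its log2 fold change of 0.30 ± 0.06 was below the members' median. Tcf25, which takes part in ribosome quality control as well as transcription, was at 228, 208 and 219 against 376, 353 and 355 CPM (0.73 ± 0.06). Irf2bp2, a corepressor that curbs inflammatory genes in macrophages, was at 45.1, 43.1 and 50 against 72.0, 71.2 and 83.0 CPM (0.71 ± 0.09) and is named after its values were seen.

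All 8 members of the cilium list rose (median 0.72), where 63.8% of all tested members and 23.3% of all tested genes did. With DESeq2's test 7 of 8 rose, and also in edgeR when scaled by upper quartiles or by DESeq2's size factors. The list includes Ttc13 and the polycystin relatives Pkd1l2 and Pkd1l3, so it is not of cilium genes alone. Ttc13, with tetratricopeptide repeats, was at 49.0, 51.0 and 55.0 CPM in wild-type and 80.3, 85.2 and 88.9 in Ts1Cje (adjusted p = 6.97e-05). Gas8, part of the complex that regulates dynein in motile cilia, was at 36.3, 33.3 and 33.7 against 40.5, 50.2 and 42.5 CPM (0.37 ± 0.10, adjusted p = 0.0151). The Gas8 call did not hold without Ts1Cje replicate 2 (0.0599) or wild-type replicate 2 (0.0620) or 3 (0.0522). Hydin, a large protein of the ciliary central pair, had only 5, 9 and 16 counts against 28, 36 and 55 and is named after its values were seen.

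Of 9 neural genes 4 rose and none fell (median 0.78). Kcnk1, a potassium leak channel, was at 17.6, 10.6 and 12.1 CPM against 56.9, 53.0 and 56.5 in Ts1Cje. The Ts1Cje libraries lay close to each other and above every wild-type library (2.05 ± 0.17, adjusted p = 2.10e-05). Trim67, a ubiquitin ligase of developing neurons, was at 14.1, 5.03 and 4.71 against 24.9, 16.9 and 18.1 CPM, where 1.33 ± 0.45 did not pass (adjusted p = 0.0559). It passed with DESeq2's Wald test (0.0448), with limma on log2(TPM + 0.1) and log2(TPM + 1) (0.026 and 0.0227), over genes whose mean log2 CPM reached 1 (0.0468) and with the replicate block (0.002). Tubb3, the neuronal beta-tubulin, was at 8.77, 3.57 and 3.84 against 8.71, 10.1 and 6.45 CPM and overlapped (0.64 ± 0.35, adjusted p = 0.176). Wild-type replicate 1 was the highest wild-type library for both Trim67 and Tubb3. Without that library the adjusted p was 1.10e-05 at 2.03 for Trim67 and 0.00186 at 1.18 for Tubb3. Egln1, the oxygen sensor that marks HIF for destruction, was at 38.6, 58.1 and 54.3 against 38.2, 40.5 and 45.6 CPM (−0.28 ± 0.15, adjusted p = 0.158). There wild-type replicate 1 was the low library, and without it the value was −0.44 (adjusted p = 0.00354).

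The 5 largest increases among members that passed, with groups that did not overlap, came from thinly counted genes. Pabpn1l, Gm4316, Snai3 and Sdr42e1 met the count rule only through the Ts1Cje libraries, where they are high, so they had to differ and their values are given with no test. Pabpn1l, a relative of a poly(A)-binding protein of the early embryo, had 1, 0 and 1 counts in wild-type and 29, 29 and 31 in Ts1Cje, a ratio of summed CPM of 45.4 (95% exact binomial interval 12.2 to 381, for counting error only). The lincRNA Gm4316 had 0, 2 and 0 against 17, 13 and 12 counts, a ratio of 21.4 (5.57 to 183). Snai3, a zinc-finger repressor, had 7, 5 and 0 against 43, 20 and 41 counts (a log2 fold change of 3.09 ± 0.65). The oxidoreductase relative Sdr42e1 had 7, 5 and 4 against 40, 33 and 52 (2.96 ± 0.38). Pkd1l2, a relative of polycystin, had 12, 7 and 10 against 65, 42 and 59 (2.53 ± 0.34, adjusted p = 0.000234). These 5 genes had 2 to 29 counts over the wild-type libraries together and were counted in every Ts1Cje library. Levels in the wild-type libraries were 0.0977 TPM or less for Pabpn1l and Gm4316 and 0.204 to 0.433 TPM for the others, as means per transcript length.

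The 8 members that fell were Fendrr, Gm27530, Crispld2, Nrp1, Zfp469, 6430548M08Rik, Zfpm1 and Cdyl2, the last and 6430548M08Rik named because the count is small. All of them but Nrp1 and Cdyl2 start between positions 119992438 and 122282141, where other members such as Map1lc3b rose. Fendrr, a noncoding RNA of lateral mesoderm transcribed next to Foxf1, was at 33.5, 69.3 and 60.4 CPM in wild-type and 2.74, 3.58 and 1.10 in Ts1Cje, the largest fall (−4.47 ± 0.47, adjusted p = 0.000705). Gm27530, an annotated microRNA, was at 17.7, 21.0 and 19.8 against 1.32, 1.97 and 0.892 CPM (−3.82 ± 0.24, adjusted p = 3.34e-06). It lies within Foxf1 on the other strand. The counting strand is not given in the sources used here, so its reads cannot be told apart from those of Foxf1, and Foxf1 itself, left out by name, was at −3.84. Foxf1 is also 1 of the mesoderm markers that were lower in Ts1Cje.

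Crispld2, a secreted protein of mesenchyme, had 11, 33 and 59 counts in wild-type and 4, 6 and 8 in Ts1Cje (−2.47 ± 0.63). It met the count rule only through the wild-type libraries, where it is high, so no test is given for it. Zfp469, a zinc-finger gene linked to collagen in the cornea, was at 7.74, 4.60 and 4.82 against 2.03, 3.34 and 2.78 CPM (−1.08 ± 0.28, adjusted p = 0.0114). Cdyl2, a chromodomain protein, was at 6.55, 5.03 and 4.50 against 3.45, 2.92 and 3.73 CPM (−0.67 ± 0.23, adjusted p = 0.0357). Its call did not hold in 5 of the 6 fits with 1 library left out, with adjusted p from 0.0589 to 0.11. For 6430548M08Rik, at 2.92, 5.30 and 4.82 against 2.58, 2.20 and 2.26 CPM (−0.89 ± 0.27, adjusted p = 0.0241), it did not hold without Ts1Cje replicate 2 (0.0694) or 3 (0.0718) or without wild-type replicate 2 (0.104) or 3 (0.0730).

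The lincRNA Gm42047, named after its values were seen, was at 703, 674 and 577 CPM in wild-type and 1130, 1120 and 916 in Ts1Cje, without overlap (0.69 ± 0.10). Among the genes left out by name, Marveld3 was at 2.63, Cox4i1 at 0.71, Rpl13 at 0.11, Foxc2 at −0.30, Cbfa2t3 at −1.47 and Foxf1 at −3.84. Of these, Rpl13 and Foxc2 did not pass. Foxc2 varied within groups, with 342, 182 and 207 counts in wild-type and 112, 349 and 106 in Ts1Cje.

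The changes of members that start close together on opposite strands were set beside those of neighbours in gene order. There were 13 pairs of protein-coding members on opposite strands with starts within 1000 bp. The absolute difference of their log2 fold changes had a median of 0.26, with both genes on the same side of 0 in 13 of 13. Over 150 neighbouring protein-coding pairs in gene order the median was 0.54, with 126 on the same side. Of all 151 protein-coding members 138 lay above 0, so most pairs share a side wherever they lie. The 2 kinds of pair were not matched for level or SE. The pair Sprtn, a protease that clears proteins stuck to DNA, and Exoc8, a subunit of the exocyst that tethers vesicles, has starts 181 bp apart. Sprtn was at 39.4, 33.7 and 31.7 CPM in wild-type and 61.0, 57.0 and 61.2 in Ts1Cje (0.77 ± 0.10). Exoc8 was at 25.8, 24.0 and 25.5 against 37.5, 41.5 and 46.4 (0.74 ± 0.10). The changes of the pair differed by less than their SE. Terf2ip, a telomere protein, and Kars have starts 75 bp apart and did not: Terf2ip was at 24.8, 25.2 and 26.3 against 36.3, 37.9 and 36.3 CPM (0.54 ± 0.09) beside 0.10 ± 0.06 for Kars. These pairs were chosen after their values were seen, as 1 that moved together and 1 that did not, and their shared promoter regions are shown for that reason. Each is the RefSeq window (GRCm38.p6) on the plus strand, at chr8:124897644-124897943 for Sprtn and chr8:112011109-112011408 for Terf2ip, with GGGCGG in capitals.
Sprtn: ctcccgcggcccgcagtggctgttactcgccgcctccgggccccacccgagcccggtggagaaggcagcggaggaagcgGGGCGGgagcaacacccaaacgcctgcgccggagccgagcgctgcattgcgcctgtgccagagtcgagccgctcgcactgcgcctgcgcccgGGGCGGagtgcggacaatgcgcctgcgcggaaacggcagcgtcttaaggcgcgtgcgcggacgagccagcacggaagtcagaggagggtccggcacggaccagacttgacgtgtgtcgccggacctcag
Terf2ip: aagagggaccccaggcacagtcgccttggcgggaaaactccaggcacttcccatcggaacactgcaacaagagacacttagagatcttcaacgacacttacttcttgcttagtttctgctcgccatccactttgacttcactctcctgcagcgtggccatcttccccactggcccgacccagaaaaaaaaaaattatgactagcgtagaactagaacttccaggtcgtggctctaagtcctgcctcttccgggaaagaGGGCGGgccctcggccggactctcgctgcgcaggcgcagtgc
The Sprtn window held 2 GC boxes on the plus strand and had 72.0% GC, and the Terf2ip window held 1 and had 55.3% GC. Whether these letters bear on the paired changes was not tested.

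**Figure D5:**
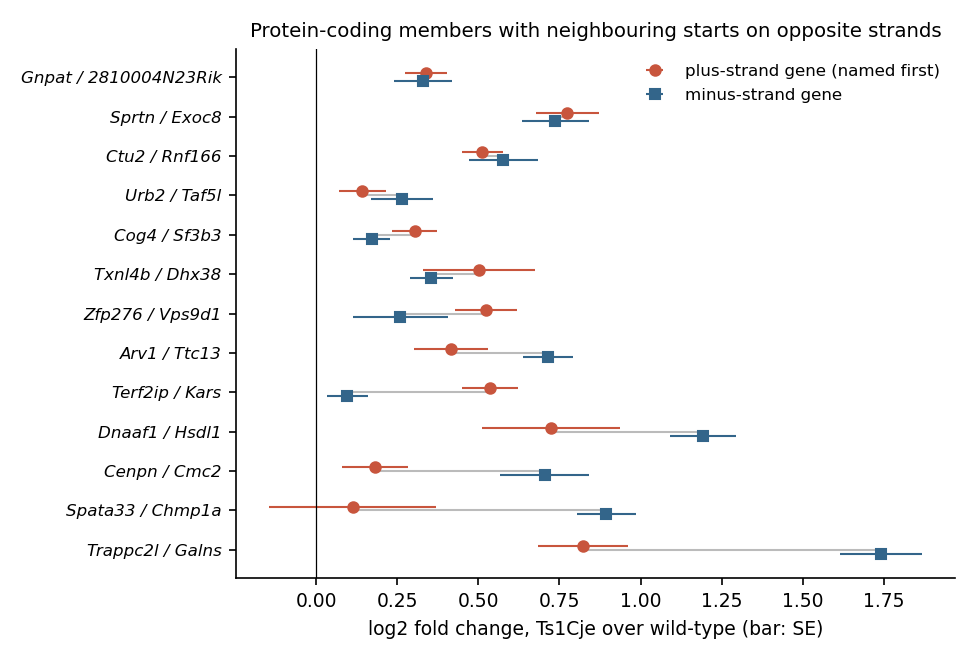
log2 fold change (x axis, bars SE) of both genes in each of 13 protein-coding pairs with starts within 1000 bp on opposite strands, ordered from the closest pair at the top. Gnpat and 2810004N23Rik (0.34 and 0.33) and Sprtn and Exoc8 are nearly equal, while Trappc2l and Galns (0.82 and 1.74) lie farthest apart.

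At the wide end of these pairs, Trappc2l, a subunit of a Golgi tethering complex, was at 11.7, 16.3 and 15.3 CPM against 26.8, 24.8 and 25.1 (0.82 ± 0.14). Galns, a lysosomal sulfatase that starts next to it, was at 8.66, 8.61 and 8.99 against 31.5, 25.4 and 30.9 (1.74 ± 0.13). Both rose, by different amounts, and both are named after their values were seen. Chmp1a, of the membrane-cutting ESCRT-III complex, was at 91.8, 75.7 and 74.9 against 161, 143 and 147 CPM (0.89 ± 0.09), while its neighbour Spata33 was at 0.11 and did not pass; this pair too was picked after its values were seen.

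Promoters were matched by symbol in RefSeq for 131 of 190 members, with 155 windows of 250 bases before to 50 after a start. Letters were searched on both strands. GGGCGG, the GC box, was in a window of 76.3% of members, 67.5% of 11715 tested genes and 38.2% of all 27025 genes of the table. CCAAT was in 38.9%, 42.6% and 41.1%, TATAAA in 10.7%, 8.65% and 15.7%, CACGTG in 13.7%, 11.4% and 8.09%, and AGATAA in 6.87%, 7.67% and 12.7%. The median GC content was 64.7% for members and 62.0% for tested genes. Members with and without GGGCGG had median log2 fold changes of 0.52 and 0.55, and those with and without CCAAT 0.63 and 0.51. The 14 members with TATAAA had a median of 0.28 beside 0.57 for the 117 without it. These are descriptions of letters in a window, not of bound sites.

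The level and size of the members were set beside those of other genes. The median wild-type level of protein-coding members was 23.8 TPM, with quartiles at 9.35 and 56.7, beside 18.5 TPM (4.63 and 49.2) for 13663 other tested protein-coding genes. Their median annotated span was 25.1 kb against 24.7 kb. Across protein-coding members, the log2 wild-type level and the log2 fold change had a Pearson correlation of −0.36 and a Spearman correlation of −0.29 (n = 151 genes, which are not independent replicates and share libraries and the wild-type values in both measures). The other tested protein-coding genes had −0.30 and −0.26. Of 190 members, 78 overlapped an annotated gene on the other strand and 36 on the same strand, leaving out, by a choice made after seeing the data, Galnt2l, a model that spans 4.43 Mb of the stretch with 0 counts. Reads of overlapping genes could not be told apart without the counting strand. The median log2 fold change was 0.51 for 93 members that overlapped no other gene and 0.49 for 95 that did.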

How the data were processed

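Poly(A) RNA was sequenced from 3 Ts1Cje and 3 wild-type samples. The authors deposited 1 table of unnormalized gene counts and 1 of TPM. The submitters' processing notes name mm10 as genome and HISAT2 2.1.0, featureCounts 1.6.3, Trimmomatic 0.38 and FastQC 0.11.7 as tools. The sources used here do not give their order, their settings or the counting strand. Gene coordinates are those of the deposited table.

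Labels gave the groups and replicate numbers. Counts were analysed in R 4.3.3 with edgeR 4.0.16 (filterByExpr with a minimum count of 10 and a minimum total of 15, TMM, robust quasi-likelihood fit without covariates), with Benjamini-Hochberg adjustment over all 17315 genes tested and a threshold of 0.05. Each SE was obtained by dividing the size of the log2 fold change by the root of the F statistic. CPM are counts over TMM-scaled library sizes; per-library differences used log2 CPM with a prior count of 2. The fit was also run on simulated counts in which few genes changed. In these data 43.8% of tested genes passed, so that run does not show how the scaling behaves here. Alternatives used DESeq2 1.42.0 and limma 3.58.1. Depth was 16577065 to 19010856 counts per library, so thinly counted genes are the least precise. Intervals cover counting error only, since they use summed counts and leave out the spread between libraries. Reads carry no molecular identifiers, so duplicate reads are not allowed for either.

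Members, role lists, marker lists and the naming rule were all chosen with earlier results of these data known. Values were given for 19 cell-state genes, the 2 members of each role list with the highest wild-type CPM, the 5 largest increases and 5 largest decreases among members that passed with groups apart, the member nearest the median, and the rows at the start of the stretch. Other named genes are marked as such where they appear. The triplicated part of chromosome 16 was taken as the genes after the start of Sod1 up to the end of Zbtb21. Promoter windows came from RefSeq (GRCm38.p6, the assembly of mm10).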

Additional observations from a re-analysis of the deposited data

How the results depend on the processing

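The members' median log2 fold change stayed within 0.476 to 0.524 over the 15 alternative fits, and the number that rose within 102 to 126. No member that passed changed sign in any of them, and 107 (without wild-type replicate 2) to 128 of the 128 calls kept their call and sign among the fits that held all of these genes. Leaving out 1 library at a time, the median ran from 0.49 to 0.524, the number that rose from 102 to 115, the number that fell from 5 to 9, and the mean per-library shift from 0.477 to 0.521. The mean per-library shift of 0.497 was 0.451 on log2(TPM + 1) and 0.539 over protein-coding members alone; the cause was not tested. The scalings moved the median of all genes to −0.035 at most.

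With the replicate number as a block, 126 members rose and 10 fell, at a median of 0.51. Same-numbered samples had correlations of 0.219, 0.0589 and 0.202 between their deviations from the group means. Each correlated best with its own number, while samples of unlike number ran from −0.198 to 0.0387. What a number marks is not given, so whether same-numbered samples share a batch cannot be told. Over all genes the block gave 4361 higher and 3965 lower calls, beside 4032 and 3547.

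Of 57 named genes, 43 kept direction and side of the threshold throughout; of 847 values, 804 did, 32 lost the call, 10 gained it and 1 changed sign. That was Cdt1, which ran from −0.195 to 0.017 with 1 library left out, positive without Ts1Cje replicate 3 and not called there. Apart from libraries left out, calls were lost for Sf3b3 (adjusted p = 0.0879 with DESeq2's Wald test, 0.0748 with upper-quartile factors in edgeR), Zfpm1 (0.105 in edgeR without the low-count filter), Zfp469 and 6430548M08Rik (0.0515 and 0.0615 with limma on log2(TPM + 0.1)) and Hydin (0.0535 with limma on log2(TPM + 1)). Calls were gained outside the fits with a library left out for Trim67 in 5 fits (adjusted p from 0.002 to 0.0468) and, in edgeR without the low-count filter, for Egln1 (0.0225) and Tubb3 (0.0139).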
